A study of Mus musculus with 6 samples.

Results

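The genes described here are 36 markers of macrophages and other leukocytes, read from arrays of mouse ovaries at E15.5. There were 3 arrays of ovaries with a knockout of Dmrt1, a DM domain transcription factor of germ cells and testis, and 3 arrays of wild-type ovaries. The labels state the genotype, tissue and age, and give no strain, Cre line, or number of animals per sample. They number replicates 1 to 3 in each group without saying that these came from separate animals. How much of the spread behind each p-value is technical is therefore not known. Each gene was read through its brightest probe set, the one with the highest mean over all 6 arrays among probe sets that name that gene alone. All 36 genes had such a probe set, out of 18193 genes on the array. Testing required a log2 intensity of 4 or more on at least 3 of the 6 arrays, since dimmer values carry little meaning. By this rule 29 of the 36 genes were tested, out of 11897 genes in all, and 0 of the 29 reached the level on arrays of 1 group only.

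Macrophages settle in the fetal gonads early, arriving from the yolk sac and later the fetal liver, and live there among germ cells, supporting cells and blood vessels. They clear dying cells, shape the vasculature and depend on the receptor CSF1R for survival. PU.1, encoded by Spi1, is the ETS family factor that drives myeloid genes, and it binds sites built around the letters GAGGAA. ITAM adaptor proteins such as TYROBP and FCER1G carry signals from Fc receptors and TREM2, while C1q, lysosomal proteases and scavenger receptors serve in the uptake and breakdown of cells and debris.

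Promoters are shown for the 3 genes that fell in the knockout (Lcp1, Ptprc and Mrc1) and for C1qc and Pf4. Of the 26 members with a promoter available, only C1qc and Pf4 held a full PU.1 site of 8 letters in the bases scanned. Whether these letters have a part in the differences was not tested. Sequences are the 250 bases before the gene start in RefSeq, build GRCm38.p6, written 5′ to 3′ along the gene. For Lcp1 and Ptprc, which have 2 starts in the table, the one listed first was used. Capitals mark GAGGAA, or its reverse complement TTCCTC, extended to GAGGAAGT or ACTTCCTC where the 8 letters were present.
Lcp1, chr14:75130873-75131122, + strand: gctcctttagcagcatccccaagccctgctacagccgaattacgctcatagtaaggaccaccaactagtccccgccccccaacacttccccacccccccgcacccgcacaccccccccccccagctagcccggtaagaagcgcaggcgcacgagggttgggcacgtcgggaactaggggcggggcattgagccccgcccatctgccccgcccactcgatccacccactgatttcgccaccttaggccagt
Ptprc, chr1:138175306-138175555, - strand: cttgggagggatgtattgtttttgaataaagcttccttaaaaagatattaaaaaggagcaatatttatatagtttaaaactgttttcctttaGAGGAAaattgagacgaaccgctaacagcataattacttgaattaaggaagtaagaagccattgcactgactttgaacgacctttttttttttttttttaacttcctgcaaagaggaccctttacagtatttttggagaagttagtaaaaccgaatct
Mrc1, chr2:14229164-14229413, + strand: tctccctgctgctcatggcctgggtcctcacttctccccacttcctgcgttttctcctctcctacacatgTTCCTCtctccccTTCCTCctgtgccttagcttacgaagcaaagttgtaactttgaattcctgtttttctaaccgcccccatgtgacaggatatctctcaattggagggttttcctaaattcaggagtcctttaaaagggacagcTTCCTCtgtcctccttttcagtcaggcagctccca
C1qc, chr4:136892915-136893164, - strand: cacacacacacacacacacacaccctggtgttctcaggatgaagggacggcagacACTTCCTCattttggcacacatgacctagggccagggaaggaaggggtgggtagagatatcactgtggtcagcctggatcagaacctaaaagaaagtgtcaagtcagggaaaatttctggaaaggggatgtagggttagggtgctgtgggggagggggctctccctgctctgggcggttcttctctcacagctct
Pf4, chr5:90772185-90772434, + strand: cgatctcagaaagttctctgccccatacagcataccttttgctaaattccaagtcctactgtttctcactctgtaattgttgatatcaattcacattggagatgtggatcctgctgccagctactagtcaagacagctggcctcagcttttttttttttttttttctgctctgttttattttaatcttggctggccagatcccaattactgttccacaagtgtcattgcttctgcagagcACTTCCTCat
Of the 36 members, 26 had promoters in the table, with 31 windows, some of which overlap. GAGGAA was found on either strand in 15 of 31 member windows (48.4%) and in 23.3% of all 32851 windows. GAGGAAGT, which contains GAGGAA, was found in 2 of 31 member windows and in 2.44% of all windows. The Mrc1 window held the 6 letters 3 times, at 180, 167 and 35 bases before the start, all on the reverse strand. The Ptprc window held them once, 158 bases before the start, and the Lcp1 window did not hold them. A match is a description of the letters and not evidence of binding.

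The array of knockout replicate 1 stood apart from the others. Xist, the RNA that coats the inactive X chromosome of female cells, averaged log2 1.81 over its probe sets on that array, against 9.75 and 9.85 on the other knockout arrays and at least 10.68 on every wild-type array. Such a level is not that of an XX ovary with an inactive X, so that sample may not be one. Whether it was mislabelled was not tested. The Y-linked genes Eif2s3y, Uty and Kdm5d did not exceed log2 1.93 on any of the 6 arrays. The sex-chromosome make-up of that sample, and its part in the differences below, were not tested. Results are therefore given with and without knockout replicate 1. The Dmrt1 probe set was under the tested level on all arrays (log2 2.58 to 3.70), with groups that overlapped, so it checks nothing about the genotype. The median intensity per array was lower in knockout (13.15 to 13.40 units) than in wild type (14.37 to 14.74 units), and under the tested level of 16 units throughout. Of the ovary's own cells, all 14 pregranulosa markers and 11 of 13 germ cell markers reached the tested level.

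Part of the list was measured well above the limit. Csf1r, Adgre1 (the F4/80 antigen), Cd68, Mrc1, Lyz2, the 3 C1q chains, Tyrobp and Fcer1g were above log2 4 on all 6 arrays. Spi1, Itgam, Itgb2, Trem2, Ccr2 and Cybb were under log2 4 on all 6 arrays, and Lgmn reached it on wild-type replicate 2 alone (log2 4.13). These 7 genes were not tested.

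Transcripts of the members were mostly less abundant in the knockout ovaries, and few of the differences passed the test. Of 29 tested members, 3 fell (Lcp1, Ptprc and Mrc1) and 0 rose, with limma and a Benjamini-Hochberg adjusted p under 0.05 over all probe sets. Over all tested genes 2.27% fell and 1.28% rose (270 and 152 genes). With every array centred on its median that split was 126 and 501, the median over all tested genes was 0.16, and Lcp1 was the 1 member that fell. A negative difference was found in 28 of 29 members (96.6%), against 46.6% of all tested genes, and Cd14 was the exception. With median centring 25 were negative, C1qb (0.03) and Ly86 (0.04) having turned positive and Fcgr3 reading 0. The median difference was -0.38 log2 units over the members and 0.02 over all tested genes. On 9 members (31.0%) every knockout array was below every wild-type array, against 11.4% of all tested genes, and with median centring 4 members did so. The shares of all genes that were negative or without overlap under median centring are not given, here or below. Those centred counts therefore have no background beside them. An unadjusted p under 0.05 with a negative difference was found for 12 members (41.4%), against 9.33% of all tested genes. Without knockout replicate 1 the number of such members was 5, and the matching share of all genes is not given. In whole ovaries, fewer leukocytes and less RNA of these genes per leukocyte cannot be told apart.

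**Figure D1:**
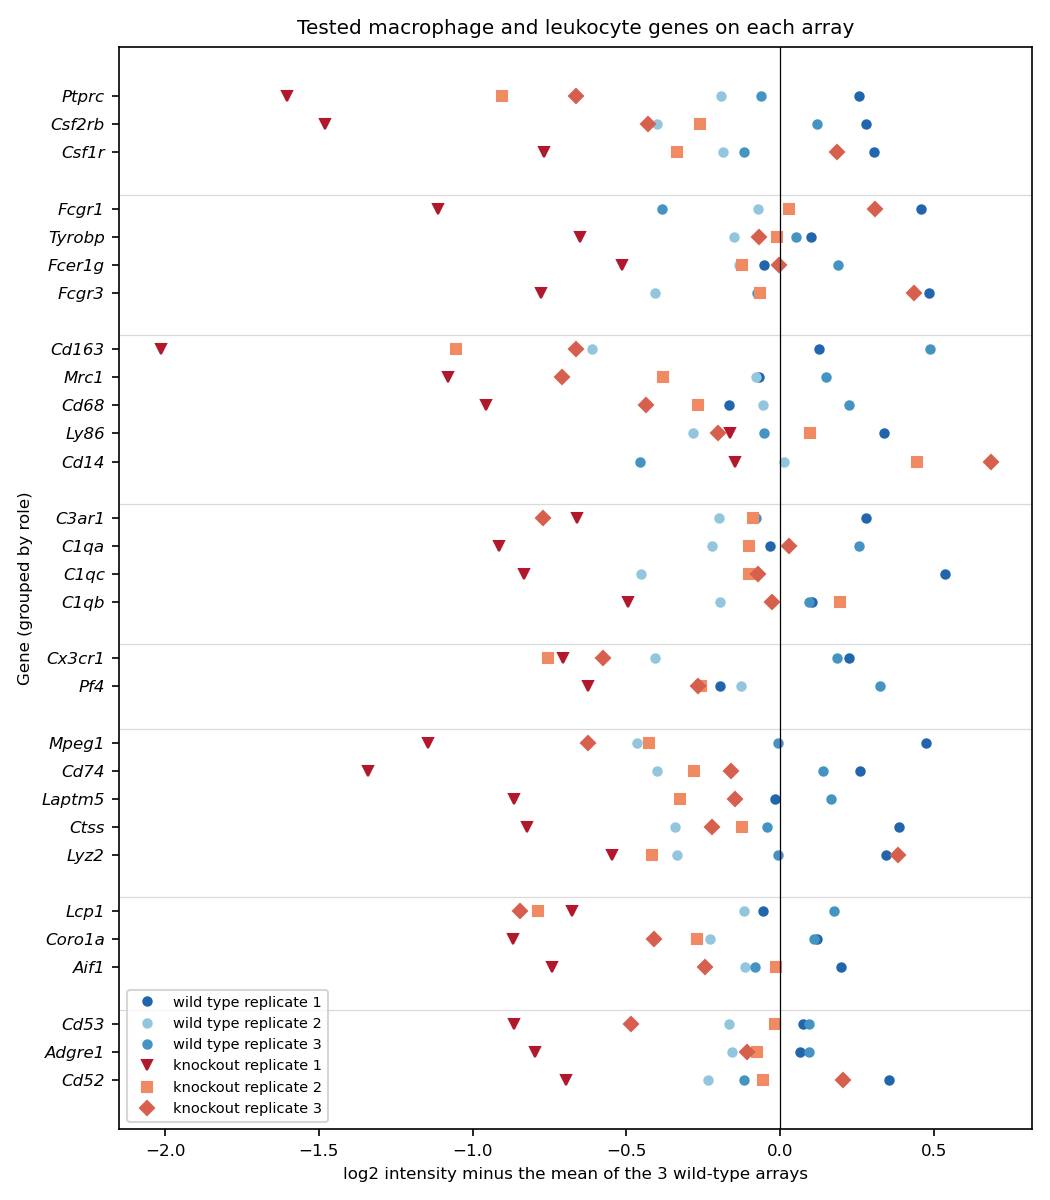
Log2 intensity of the 29 tested members on each array, as the difference from the mean of the 3 wild-type arrays, with genes grouped by role; triangles, squares and diamonds are knockout replicates 1, 2 and 3, and circles are wild-type arrays. Knockout replicate 1 was the lowest of all 6 arrays for 24 of the 29 genes.

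Much of the shift lay on 1 array. Knockout replicate 1 was the lowest of the 6 arrays for 24 of 29 members, while over all tested genes it was the lowest for 17.6%. Relative to each gene's wild-type mean, the median member lay at -0.80 log2 units on that array, at -0.12 on knockout replicate 2 and at -0.21 on knockout replicate 3. Wild-type replicate 2 lay at -0.20, within the range of the latter 2 knockout arrays. Wild-type replicate 1 was the highest array for 16 members and wild-type replicate 3 for 10. Over all tested genes the same array medians were between -0.02 and 0.03.

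Without knockout replicate 1 the median difference of the members was -0.17, and 0.02 over all genes. On these 5 arrays 24 of 29 members (82.8%) had a negative difference, against 46.5% of all genes, and 1 member fell (3.45%), against 1.34% of all genes. For 15 of the 28 members with a negative difference, the difference shrank by more than 50%.

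**Figure D2:**
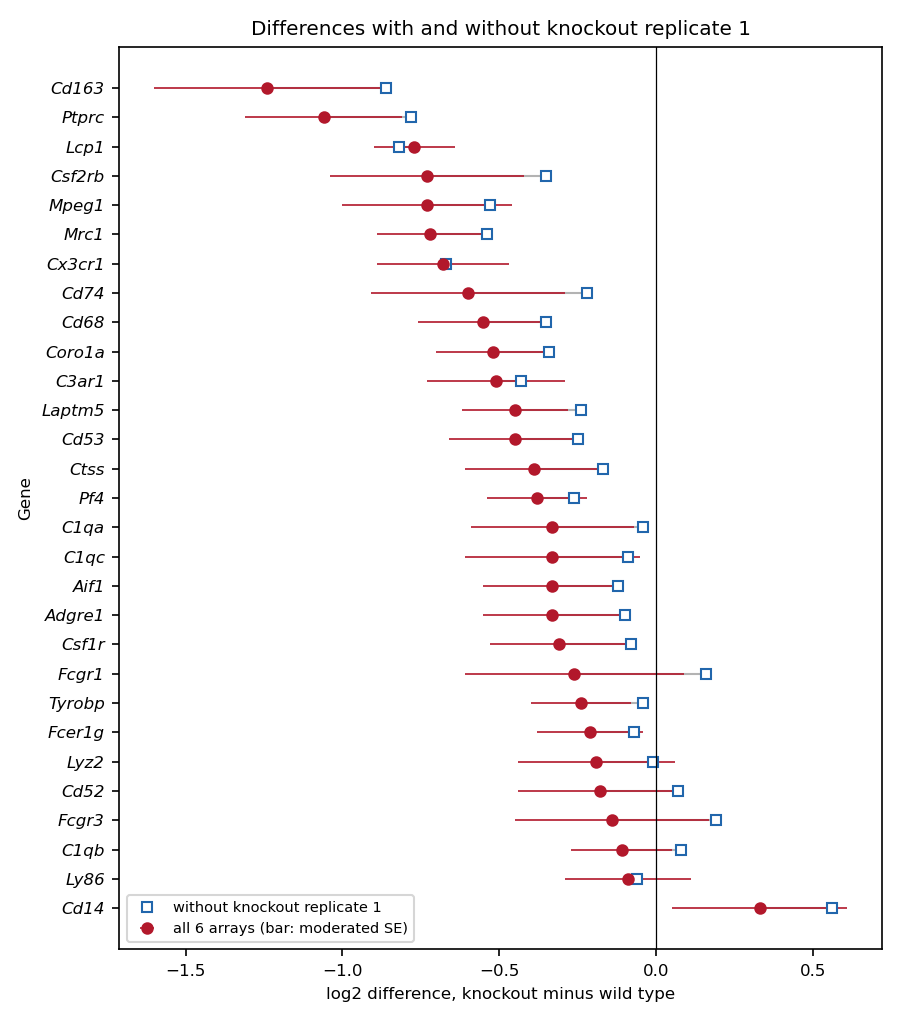
Log2 difference (knockout minus wild type) of the 29 tested members over all 6 arrays (filled circles, bars give the moderated SE) and without knockout replicate 1 (open squares). Lcp1 and Cx3cr1 barely moved, while Fcgr1, Fcgr3, C1qb and Cd52 crossed 0.

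Among actin regulators, Lcp1 had the smallest p of all members. Lcp1 encodes L-plastin, which bundles actin filaments in leukocytes, and its probe set 1415983_at read log2 9.01, 8.90 and 8.84 on the knockout arrays, in the order of replicates 1, 2 and 3 used throughout, and 9.63, 9.57 and 9.86 on the wild-type arrays. The knockout arrays lay within 0.17 of each other and all were below the wild-type arrays. Lcp1 fell by 0.77 ± 0.13 log2 units (limma adjusted p = 0.00672, here and below with the moderated SE over 3 arrays a group), to 58.7% of the wild-type level. The fall was 0.82 without knockout replicate 1 (limma adjusted p = 0.0159), and the call ended only without wild-type replicate 3 (-0.68, 0.0593). The second Lcp1 probe set was under the tested level on all 6 arrays.

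Coro1a, encoding the actin-binding protein coronin 1A of leukocytes, read log2 9.07, 9.67 and 9.53 on the knockout arrays and 10.06, 9.71 and 10.05 on the wild-type arrays. The groups were separated by 0.03, and the difference of -0.52 ± 0.18 did not pass (limma adjusted p = 0.123). Its second tested probe set differed by -0.60 ± 0.18 (0.0787) and did not overlap either. Aif1, encoding the calcium-binding protein IBA1 of macrophages, differed by -0.33 ± 0.22 (0.433) and overlapped. Without knockout replicate 1 Coro1a differed by -0.34 and Aif1 by -0.12.

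Among growth factor and signalling receptors, Ptprc fell and Csf1r and Csf2rb did not pass. Ptprc encodes CD45, a tyrosine phosphatase of leukocytes, and its probe set 1422124_a_at read log2 3.78, 4.48 and 4.72 on the knockout arrays and 5.64, 5.19 and 5.32 on the wild-type arrays. Every knockout array was lower, and knockout replicate 1 was under the tested level. Ptprc fell by 1.06 ± 0.25 (limma adjusted p = 0.0357). Leaving out knockout replicate 3 kept the call (-1.25, 0.024), while it ended without knockout replicate 1 (-0.78, 0.0795) or 2 (-1.14, 0.0544) and without wild-type replicate 1 (-0.93, 0.158), 2 (-1.16, 0.0841) or 3 (-1.09, 0.11). It also ended with quantile normalization (-0.93, 0.0632) and with median centring (-0.92, 0.0546).

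Csf1r, the receptor for the macrophage growth factors CSF1 and IL34, read log2 10.12, 10.55 and 11.07 in knockout and 11.19, 10.70 and 10.77 in wild type. Knockout replicate 3 lay above 2 of the wild-type arrays, and the difference was -0.31 ± 0.22 (limma adjusted p = 0.48), or -0.08 without knockout replicate 1. Its other tested probe sets differed by -0.38 and -0.06.

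Csf2rb encodes the beta chain shared by receptors of granulocyte-macrophage growth factor and related cytokines, and it has a close paralog, Csf2rb2, from which the probes may not be told apart. Its brightest probe set read log2 6.02, 7.24 and 7.07 in knockout and 7.78, 7.10 and 7.62 in wild type, with groups that overlapped (-0.73 ± 0.31, limma adjusted p = 0.22). Its second probe set, 1421326_at, read log2 3.51, 4.11 and 3.65 in knockout and 4.77, 4.71 and 5.22 in wild type, and fell by 1.14 ± 0.22 (0.0127). This was the only one of 8 further tested member probe sets past the threshold, and all 8 had a negative difference. On that second probe set 2 of the knockout arrays were under the tested level, and its call ended without wild-type replicate 1 (-1.20, 0.0518) or 3 (-0.98, 0.0725).

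Among scavenger and pattern receptors, 1 of 5 fell. Mrc1 encodes the mannose receptor CD206 of tissue macrophages, which some endothelium also makes, and its probe set 1450430_at read log2 9.14, 9.84 and 9.51 on the knockout arrays and 10.15, 10.14 and 10.37 on the wild-type arrays. All knockout arrays were lower, replicate 1 most so. Mrc1 fell by 0.72 ± 0.17 (limma adjusted p = 0.0358), to 60.6% of the wild-type level. The call held without knockout replicate 2 (-0.89, 0.0107) and ended without knockout replicate 1 (-0.54, 0.0881) or 3 (-0.73, 0.0727) and without wild-type replicate 1 (-0.75, 0.12), 2 (-0.76, 0.11) or 3 (-0.65, 0.165). It also ended with median centring (-0.58, 0.0752).

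Cd163, the macrophage receptor for haptoglobin bound to haemoglobin, had the largest difference of the tested members. It read log2 3.74, 4.70 and 5.09 in knockout and 5.88, 5.14 and 6.24 in wild type. The groups were 0.05 apart, the SD was 0.69 in knockout and 0.56 in wild type, and the difference of -1.24 ± 0.36 did not pass (limma adjusted p = 0.0762). It passed without knockout replicate 3 (-1.53, 0.0477), and differed by -0.86 without knockout replicate 1 (0.184).

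Cd68, a glycoprotein of macrophage lysosomes, read log2 6.25, 6.94 and 6.77 in knockout and 7.04, 7.15 and 7.43 in wild type, with no overlap (-0.55 ± 0.21, limma adjusted p = 0.173). Ly86, the partner of the receptor RP105, differed by -0.09 ± 0.20 and overlapped. Cd14, the co-receptor for bacterial lipopolysaccharide, was the only tested member with a higher mean in knockout. It read log2 4.26, 4.85 and 5.09 in knockout and 4.85, 4.42 and 3.95 in wild type, near the tested level on all arrays, and the difference of 0.33 ± 0.28 did not pass (0.565).

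**Figure D3:**
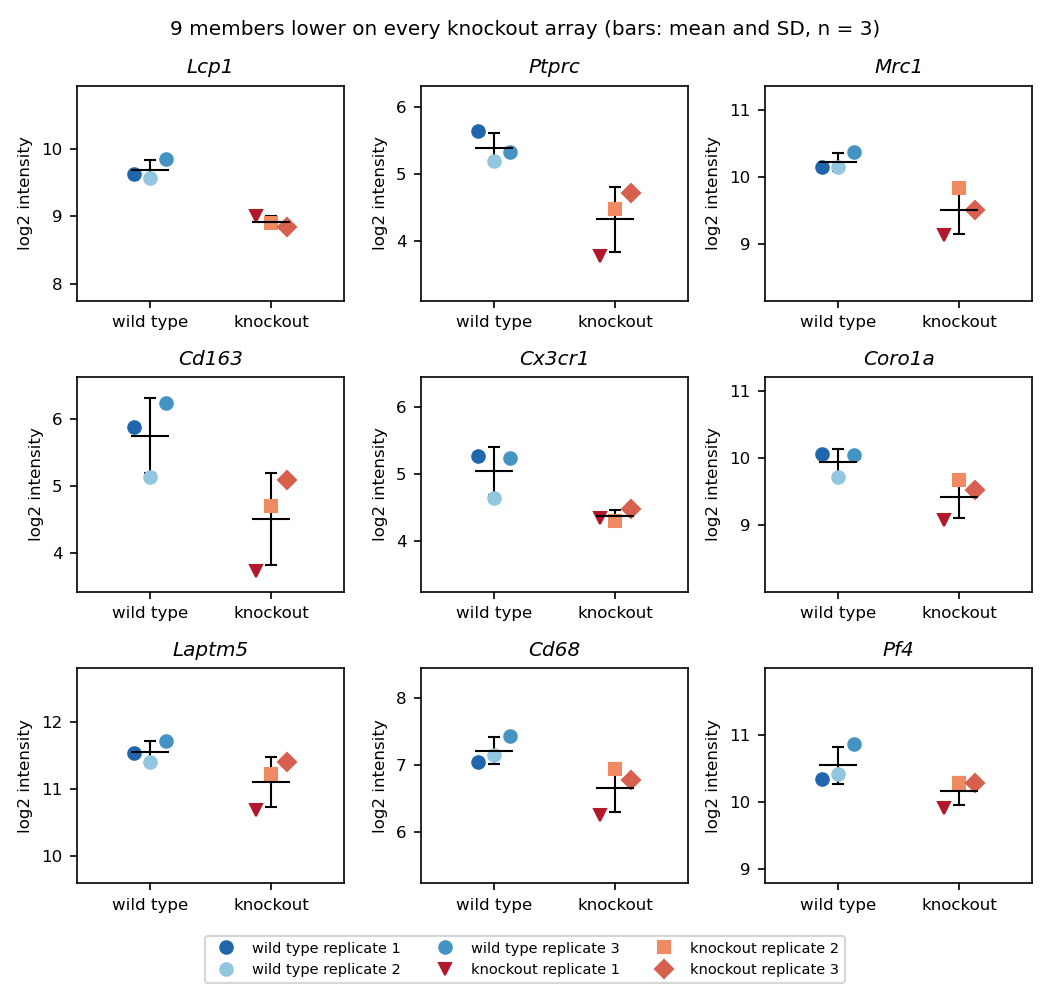
Log2 intensity of the 9 members that were lower on every knockout array than on any wild-type array, each axis spanning the same number of log2 units; points are arrays, and bars give the mean and SD of 3 arrays. Lcp1 and Cx3cr1 had an SD of 0.09 in knockout, against 0.49 for Ptprc and 0.69 for Cd163, where knockout replicate 1 was the lowest array.

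Among chemokines, chemokine receptors and integrins, Cx3cr1 and Pf4 were tested and 0 of them passed. Cx3cr1, the fractalkine receptor of resident macrophages, read log2 4.34, 4.29 and 4.47 in knockout and 5.27, 4.64 and 5.23 in wild type. The knockout arrays were close together and all lower, by 0.68 ± 0.21 on average (limma adjusted p = 0.0905), and by 0.67 without knockout replicate 1 (0.177). Pf4, the platelet factor 4 chemokine, which fetal macrophages also express, read log2 9.92, 10.29 and 10.28 in knockout and 10.35, 10.42 and 10.87 in wild type (-0.38 ± 0.16, 0.222). The chemokine receptor gene Ccr2 and the integrin genes Itgam (CD11b) and Itgb2 (CD18) were under the tested level on all 6 arrays.

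In the Fc receptor and ITAM group 4 of 5 genes were tested and 0 passed, and knockout replicate 1 was the lowest array for all 4. Tyrobp, encoding the adaptor DAP12, read log2 10.35, 10.99 and 10.93 in knockout and 11.10, 10.85 and 11.05 in wild type. Only knockout replicate 1 was outside the wild-type range, and the difference was -0.24 ± 0.16 (limma adjusted p = 0.446), or -0.04 without that array. Fcer1g, the Fc receptor gamma chain, differed by -0.21 ± 0.17 (0.541), or -0.07. The activating Fc receptor genes Fcgr1 (-0.26 ± 0.35) and Fcgr3 (-0.14 ± 0.31) turned to 0.16 and 0.19 without it. Trem2, a lipid-sensing receptor that signals through DAP12, was not tested.

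Of the 4 complement members 0 passed. C1qa, C1qb and C1qc encode the chains of C1q, the recognition unit of the classical pathway, which macrophages make. They differed by -0.33 ± 0.26, -0.11 ± 0.16 and -0.33 ± 0.28, with limma adjusted p of 0.526, 0.756 and 0.559. Without knockout replicate 1 they differed by -0.04, 0.08 and -0.09. C1qb read log2 11.84, 12.53 and 12.31 in knockout and 12.44, 12.14 and 12.43 in wild type, so that knockout replicate 1 was below the wild-type range and knockout replicate 2 above it. The dimmest of its 3 probe sets differed by -0.46 ± 0.20 (0.233). C3ar1, the receptor for complement fragment C3a, differed by -0.51 ± 0.22 (0.23), and by -0.43 without knockout replicate 1, with knockout replicate 3 the lowest array at log2 5.99.

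Of 7 genes for lysosomes, killing and antigen handling, 5 were tested and 0 passed. Laptm5, a lysosomal membrane protein of blood cells, read log2 10.68, 11.22 and 11.40 in knockout and 11.53, 11.40 and 11.71 in wild type. Knockout replicate 3 and wild-type replicate 2 were equal to 2 decimals, and the difference was -0.45 ± 0.17 (limma adjusted p = 0.164). Mpeg1, the pore-forming perforin 2 of macrophages, read log2 5.59, 6.31 and 6.11 in knockout and 7.21, 6.27 and 6.73 in wild type (-0.73 ± 0.27, 0.148).

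Cd74, the invariant chain of MHC class II, read log2 5.07, 6.13 and 6.25 in knockout and 6.67, 6.01 and 6.55 in wild type (-0.60 ± 0.31, limma adjusted p = 0.32), or -0.22 without knockout replicate 1. Ctss, the protease cathepsin S, differed by -0.39 ± 0.22 (0.37), or -0.17. Lyz2, the lysozyme of myeloid cells, differed by -0.19 ± 0.25 (0.726), or -0.01. Cybb, a subunit of the phagocyte NADPH oxidase, and Lgmn, the protease legumain, were not tested.

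Of the surface glycoproteins 0 of 3 passed. The tetraspanin gene Cd53 was at log2 8.15 and 8.53 on knockout replicates 1 and 3, under the wild-type arrays (8.85 to 9.11), while knockout replicate 2 was above the lowest of them (-0.45 ± 0.21, limma adjusted p = 0.247). Adgre1 differed by -0.33 ± 0.22 (0.436) and Cd52, a small leukocyte glycoprotein, by -0.18 ± 0.26 (0.743). Without knockout replicate 1 these were -0.25, -0.10 and 0.07.

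Of leukocyte genes outside the 36, few passed the test. Of 32 tested further macrophage and myeloid genes 1 fell (3.12%, against 2.27% of all tested genes) and 0 rose, and with quantile normalization or median centring 0 fell. A negative difference was found in 27 (84.4%, against 46.6% of all genes), or 25 with median centring, and 13 were lower without overlap (40.6%, against 11.4%). Their median was -0.38, or -0.20 without knockout replicate 1 and -0.24 with median centring. Fcgr2b, the inhibitory Fc receptor, read log2 4.48, 5.54 and 5.60 in knockout and 6.43, 6.17 and 6.32 in wild type and fell by 1.10 ± 0.28 (limma adjusted p = 0.0468). It missed the threshold without knockout replicate 1 (-0.74, 0.0634), or on omission of wild-type replicate 1 (-1.04, 0.176), 2 (-1.17, 0.122) or 3 (-1.10, 0.148), as well as with quantile normalization (-1.01, 0.0699) and median centring (-0.97, 0.068). Of the list's 55 measured genes 23 were not tested. Of 20 tested pan-leukocyte genes 12 had a negative difference (60%, against 46.6% of all genes) and 0 passed. Lower without overlap were 3 (15%, against 11.4%), and 1 was higher without overlap. Lst1 (-0.67 ± 0.21, 0.103) and Sla (-0.81 ± 0.27, 0.121) were lowest in p. The median of that list was -0.12, or 0.09 without knockout replicate 1 and -0.02 with median centring, where 11 of 21 were negative.

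Ligands of leukocyte receptors were measured in the same ovaries. Cxcl12, a chemokine of stroma that draws CXCR4-bearing cells, read log2 10.50, 10.30 and 10.46 in knockout and 10.96, 10.89 and 10.82 in wild type. It fell by 0.47 ± 0.11 (limma adjusted p = 0.0259), and by 0.51 without knockout replicate 1 (0.0467), while the call ended without wild-type replicate 1 (-0.43, 0.137), 2 (-0.47, 0.137) or 3 (-0.51, 0.0944), or with median centring (-0.33, 0.0819). Ccl12 differed by -0.88 ± 0.33 (0.162), and the other 8 of 10 tested ligands did not pass either. Csf1 differed by -0.33 ± 0.27 (0.548), and Il34 and Cx3cl1, which encodes the CX3CR1 ligand, were not tested. Of 6 tested MHC class II and antigen presentation genes and 9 complement genes, 3 of which are members, 0 passed, with medians of -0.05 and -0.11 that turned to 0.09 and 0.03 with median centring, where 1 complement gene rose. The lowest p in these lists belonged to H2-Aa (-0.31 ± 0.23, 0.489) and C1qbp (0.38 ± 0.13, 0.129).

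Markers of other blood cells were sparse. All 11 measured T and NK cell markers were under the tested level on all arrays. In the B cell list 2 of 8 were tested (Cd79b and Vpreb1), and in the megakaryocyte list 2 of 9 (Itgb3 and the member Pf4), with medians of -0.19 and -0.20 and 0 calls; for 3 tested megakaryocyte genes the median was 0.06 with either other scaling. Of 4 tested neutrophil and granulocyte markers 0 passed and 0 had a negative difference, the opposite direction to most members. Their median was 0.51, or 0.78 without knockout replicate 1. Relative to the wild-type mean, their median lay at -0.09, -0.44 and 2.11 on knockout replicates 1, 2 and 3. S100a9 was highest on knockout replicate 3, at log2 11.93, against 9.42 and 9.96 on the other knockout arrays and a wild-type range of 9.32 to 10.46. Of 4 tested mast cell markers 0 passed (median -0.36), and Cpa3 ran from log2 4.96 to 7.60 over the knockout arrays and from 5.15 to 8.32 over the others.

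**Figure D4:**
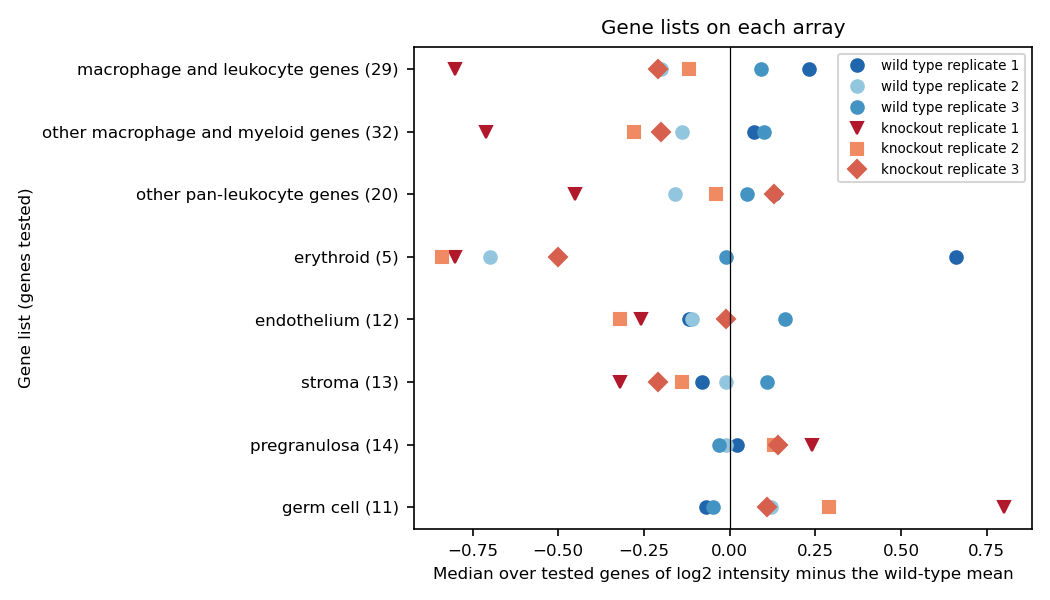
Median over the tested genes of each list (number in brackets) of the log2 intensity minus that gene's wild-type mean, for each array; markers are as in the plot of members by array. On knockout replicate 1 the macrophage and leukocyte genes were at -0.80 and the germ cell genes at 0.80.

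Markers of other ovarian cells also differed between the groups. Summed over the list, the 36 members reached 12797 to 19114 units of intensity on knockout arrays and 18315 to 22488 on the others, with the lowest sum on knockout replicate 1. Of 12 tested endothelial genes 9 were negative and 2 fell, Flt1 (-0.88 ± 0.19, limma adjusted p = 0.0184) and Tek (-0.51 ± 0.13, 0.0452), at a median of -0.24 (-0.10 with median centring) and sums of 4100 to 5091 against 5068 to 5933. Leaving out wild-type replicate 1 (-0.95, 0.0626) or 3 (-0.72, 0.112) ended the call of Flt1. Leaving out any array but knockout replicate 3 ended that of Tek (adjusted p 0.0802 to 0.198), as did quantile normalization (0.054) and median centring (0.109). The endothelial markers Pecam1, Cdh5 and Sox18 were not tested. Of 13 stromal genes 11 were negative and 1 fell, the collagen gene Col6a3 (-0.88 ± 0.15, 0.00594), which stayed called on leaving out each array, with a median of -0.25 (-0.11 with median centring) and sums of 38681 to 41526 against 44321 to 49398. Of 5 tested erythroid genes all 5 were negative and 1 fell, Slc4a1 (-1.44 ± 0.33, 0.0275), with a median of -0.64 and sums of 7948 to 9679 against 9285 to 10338. Slc4a1 missed the threshold on omission of knockout replicate 1 (0.0871) or 2 (0.0704), or of replicate 1 (0.0952) or 3 (0.0862) of the wild type. Erythroid genes not tested were Hba-a1, Epor, Epb42, Rhag and Hemgn. Lower without overlap were 41.7% of endothelial, 46.2% of stromal and 20% of erythroid genes, against 31% of members and 11.4% of all tested genes. In these 3 lists 0 genes were higher without overlap. Negative differences made up 75%, 84.6% and 100% of them, against 46.6% of all tested genes. Genes that fell made up 16.7%, 7.69% and 20%, against 2.27%.

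Germ cell genes went the other way, with a median of 0.43 over 11 tested genes, 2 negative and 1 that rose, Dppa5a (1.90 ± 0.35, limma adjusted p = 0.00972), whose call ended without wild-type replicate 1 (1.71, 0.0686). With median centring 2 germ cell genes rose, at a median of 0.57. Sums over the germ cell list were 17551 to 25287 against 14829 to 17707, with the highest sum on knockout replicate 1, and Kit and Tdrd1 were not tested. Of 14 pregranulosa genes 3 were negative and 0 passed (median 0.16), while 2 rose with median centring. Their deposited intensities summed to 20734 to 21760 against 18845 to 19559. Irx5 (0.72 ± 0.20, 0.06) and Nr0b1 (0.58 ± 0.22, 0.162) came closest. Without knockout replicate 1 the medians were -0.18 for endothelium, -0.19 for stroma, -0.63 for the erythroid list, 0.16 for germ cells and 0.11 for pregranulosa cells. The part of these cell types in the members' differences was not tested.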

How the data were processed

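The 36 members and the other gene lists were chosen with earlier results of these data known. Ovaries were kept in an RNA preservative and column-extracted RNA was labelled with biotin for Affymetrix hybridisation, per the labels' protocols. The authors deposited intensities on a linear scale, made with GCRMA, per the submitters' processing notes (version not given in the sources used here). GCRMA compresses dim values, there are no detection calls, and the number of arrays (6) limits the precision. Here the log2 of each intensity was used. Among 45101 probe sets, 64 were controls and left out here, and 22040 were tested. By the platform annotation 34945 probe sets named 1 gene, 932 several and 9160 none, and only the first kind was used. Of these, 34741 matched RefSeq's GRCm38.p6 table by gene identifier, and 0 symbols changed.

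The genotypes were compared in limma 3.58.1 under R 4.3.3, with eBayes and its mean-intensity trend, no covariate, 2-sided p-values, Benjamini-Hochberg adjustment over every tested probe set and a threshold of 0.05. On simulated arrays the fit recovered 12 of 50 changes of 0.5 log2 units and 44 of 50 changes of 1 unit. A difference that did not pass may therefore still be real. All members are named, and of the other lists the genes past the threshold or else up to 2 with the smallest p. S100a9, Cpa3, Csf1, Il34 and Cx3cl1 were also named, after their values were seen. Lists are described by counts and medians, with no test. Alternatives covered the filter, the variance model, array weights, normalization, the choice of probe sets, a pseudocount, the replicate number as a block, and leaving out each array. Correlations of log2 values between arrays were 0.994 to 0.996 in a group and 0.988 to 0.991 across groups, and 0 pairs of arrays were identical.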

Additional observations from a re-analysis of the deposited data

How the results depend on the processing

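In all 19 alternatives the median difference of the members stayed negative (-0.52 to -0.17) and 0 members rose. Dropping the intensity trend, robust eBayes and the replicate block cannot change the differences by construction, so the median was -0.38 in each. The number that fell was 0 to 3 on leaving out each array in turn and 1 to 4 in the other fits. It was 1 with median centring (Lcp1, 0.022), where Mrc1 (0.0752) and Ptprc (0.0546) did not pass. Median centring moved the median of all genes to 0.16 and that of the members to -0.24. It takes 1 amount from every gene on an array, so by construction it cannot change the gap between these medians, apart from filtering. It left 4 members without overlap in place of 9, turned C1qb (0.03) and Ly86 (0.04) positive, and turned the split of genes called from 270 lower and 152 higher to 126 and 501. With no filter that split was 347 and 380. The number of members without overlap was 9 to 17 on leaving out each array, which by construction cannot lower it. Without knockout replicate 1 it was 9 (31%), against 15.3% of all genes. Genes called numbered 422, or 727 with no filter, 220 with the replicate block and 99 to 501 on leaving out each array. Leaving out arrays moved C1qb from -0.26 to 0.08, Fcgr1 from -0.55 to 0.16, Fcgr3 from -0.42 to 0.19, Cd52 from -0.38 to 0.07 and Ly86 from -0.24 to 0.07. Limma adjusted p for Mrc1 was 0.0678 without the intensity trend, for Ptprc 0.0632 with quantile normalization, and for Cd163 0.0435 with array weights, while the mean of probe sets put Csf2rb at 0.0489. The cause of these changes was not tested. Arrays with the same replicate number did not vary together (correlations of deviations -0.165, -0.247 and -0.168), so the numbers were not taken as pairs. With the replicate block 2 members fell, Lcp1 (0.0312) and Cd163 (0.0454), and Ptprc (0.0593) and Mrc1 (0.0524) did not pass. Members under the tested level have no usable difference here.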
